A study of Mus musculus with 11 samples.

Results

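The genes Slit2, Robo2, Dcc, Flrt3, Lphn2, Lrrtm1 and Lrfn5 direct growing axons or join nerve cells through leucine-rich repeat proteins and their receptors. All rows of the 4 deposited tables that carried 1 of these 7 gene names were taken. They were 8 windows of 500 bp among the 1239 windows of the tables. All 8 stood in the list that compared a 24 h with a 22 h light-dark cycle in the ventral suprachiasmatic nucleus, which held 812 windows. The list for the ventral 24 h against 26 h comparison (217 windows) and the dorsal lists (131 windows for 22 h and 79 for 26 h) named none of the 7. The genes were chosen by these listed differences, so the values of the 24 h and 22 h columns given here describe the choice and no test was made of them.

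The study measured methylated DNA by MeDIP-seq, in which an antibody against methylated cytosine captures sonicated fragments (about 300 bp) for sequencing. The suprachiasmatic nucleus, or SCN, is the circadian pacemaker of the hypothalamus. Wild-type C57BL/6Cr1 mice, labelled as 90 days old at sampling, had been entrained for 6 weeks to cycles of 22, 24 or 26 h, followed by 3 days of constant darkness. At circadian time 4 the ventral and dorsal SCN were cut apart in 1 slice of about 250 µm. The labels give 2 samples for each region and cycle length, except 1 for dorsal 24 h. No group carried an altered allele or a drug. Each table shows 1 column for each cycle length, and how samples were combined is not given, so the spread between mice cannot be seen. The dissection cannot be checked from marker genes, because the files hold captured genomic DNA and not expression. Reads recovered from the RPKM values gave a depth of about 5230000 for ventral 24 h and 8170000 for ventral 22 h, and the other columns lay between 4580000 and 9430000.

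Slit2 is a secreted protein that repels axons through Robo receptors, and Dcc is a receptor for netrins that mediates attraction. Flrt3 is a leucine-rich transmembrane protein that binds both Unc5 guidance receptors and latrophilins, of which Lphn2 is 1. Lrrtm1 and Lrfn5 are leucine-rich adhesion proteins of synapses. In mammals DNA methylation falls mainly on cytosine followed by guanine (CpG), and antibody capture depends both on how many CpG a fragment holds and on how many of them are methylated. The read counts therefore measure captured DNA and not the share of methylated molecules.

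The windows carried the name of the gene whose start site the authors gave as nearest, and most lay far from it. Coordinates are those of the mm9 build, and distances are from the window to the authors' start site. The Slit2 window (chr5:48361001-48361500) was the closest, at 13143 bp upstream. The Robo2 window (chr16:74777501-74778000) lay 366594 bp upstream, and the Dcc window (chr18:72933001-72933500) 422528 bp upstream. The Flrt3 windows adjoined each other (chr2:140576001-140576500 and chr2:140576501-140577000), at 79039 and 79539 bp upstream of Flrt3 and inside an intron of another gene, Macrod2. The Lrrtm1 window (chr6:76797501-76798000) lay 394960 bp upstream, and the nearest protein-coding start in GENCODE M1 was that of Ctnna2, at 55131 bp. The Lrfn5 window (chr12:62864001-62864500) was the only 1 of the 8 within its named gene, in an intron 238632 bp downstream of the start. The Lphn2 window (chr3:148094001-148094500) lay 523348 bp downstream of the start and 384 kb past the far end of the gene. Slit2, Robo2, Dcc, Lrrtm1 and Lphn2 windows were intergenic in that annotation, and none of the 8 overlapped an exon.

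**Figure D1:**
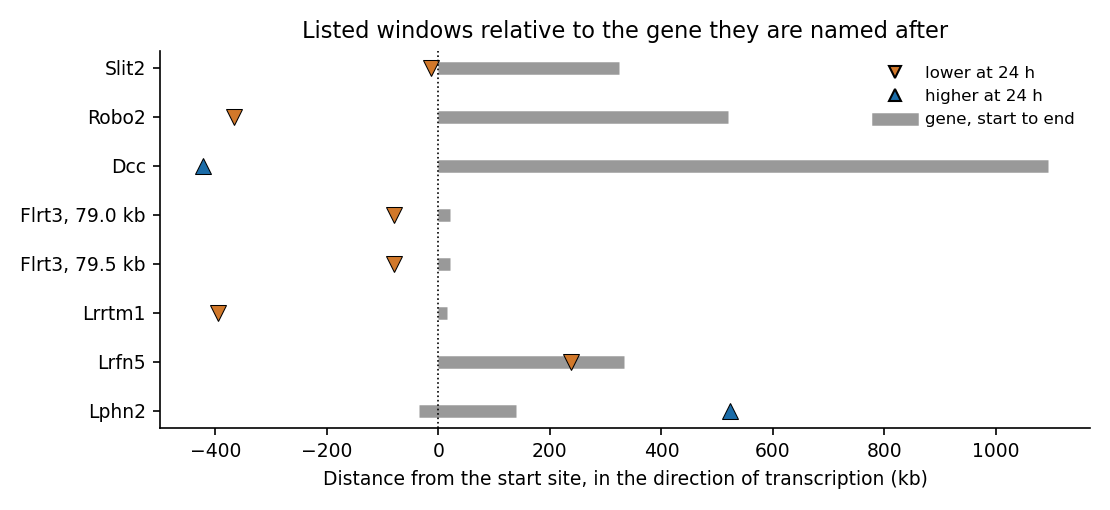
Position of the 8 windows relative to the start site that the authors gave for each named gene, with the gene drawn as a bar and distance in kb along its direction of transcription. The Lrfn5 window alone falls on the bar of its gene; 6 windows lie upstream and the Lphn2 window lies past the far end.

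What the windows held in sequence was not used in the choice of genes. The stretches shown here carry the likeness between windows that the rest of the account turns on. They are the mm9 plus strand, 5′ to 3′, with each CpG in capitals. The Slit2 stretch is chr5:48361012-48361311 and the Robo2 stretch is chr16:74777627-74777926. They are parts of 374 aligned bases, without a gap, of which 333 (89.0%) were identical. Along the 374 bases Slit2 had 18 CpG and Robo2 19, and 13 stood at the same place in both.
Slit2: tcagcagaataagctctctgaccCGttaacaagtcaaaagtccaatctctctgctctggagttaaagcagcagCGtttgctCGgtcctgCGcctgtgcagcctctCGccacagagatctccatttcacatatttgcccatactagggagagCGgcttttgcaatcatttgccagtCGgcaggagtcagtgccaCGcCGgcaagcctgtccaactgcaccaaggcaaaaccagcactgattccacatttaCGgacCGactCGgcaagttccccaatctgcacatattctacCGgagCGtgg
Robo2: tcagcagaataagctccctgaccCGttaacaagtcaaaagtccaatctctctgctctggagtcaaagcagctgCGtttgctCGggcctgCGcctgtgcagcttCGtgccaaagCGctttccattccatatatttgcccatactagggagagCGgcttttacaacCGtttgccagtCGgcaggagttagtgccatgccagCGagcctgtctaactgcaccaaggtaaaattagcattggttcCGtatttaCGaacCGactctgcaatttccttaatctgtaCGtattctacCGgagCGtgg

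The windows of Flrt3 and Lrrtm1 shared another sequence, of which 1 tandem unit from each is shown. The Flrt3 unit is chr2:140576501-140576708, from the window farther from the gene, and the Lrrtm1 unit is chr6:76797537-76797744. Over 458 aligned bases these windows had 446 (97.4%) identical, and 26 CpG stood at the same place.
Flrt3: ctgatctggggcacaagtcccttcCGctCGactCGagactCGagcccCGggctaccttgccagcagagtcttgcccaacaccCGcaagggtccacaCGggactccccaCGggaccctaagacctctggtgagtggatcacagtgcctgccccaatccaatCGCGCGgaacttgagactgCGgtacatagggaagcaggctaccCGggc
Lrrtm1: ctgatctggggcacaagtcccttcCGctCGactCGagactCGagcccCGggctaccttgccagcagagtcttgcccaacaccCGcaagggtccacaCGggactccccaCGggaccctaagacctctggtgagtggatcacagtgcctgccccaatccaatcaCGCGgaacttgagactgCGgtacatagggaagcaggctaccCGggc

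The Lrfn5 window repeated a unit of 206 bp that was unlike the others, and its first copy is shown (chr12:62864001-62864206). The Lphn2 window was built otherwise: it consisted of the triplets agc and agg, and its first 150 bases are shown (chr3:148094001-148094150). Of its 166 triplets, 61 were agc and 105 agg, and the window held no CpG at all.
Lrfn5: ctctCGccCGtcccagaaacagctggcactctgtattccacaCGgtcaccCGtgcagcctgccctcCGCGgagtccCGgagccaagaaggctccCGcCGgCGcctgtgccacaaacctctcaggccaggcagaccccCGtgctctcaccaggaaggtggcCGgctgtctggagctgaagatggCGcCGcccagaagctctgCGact
Lphn2: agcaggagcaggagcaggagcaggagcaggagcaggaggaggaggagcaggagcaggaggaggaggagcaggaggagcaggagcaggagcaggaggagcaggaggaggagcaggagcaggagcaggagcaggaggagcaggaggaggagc

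By RPKM, a read count corrected for window length and for the depth of each column, 6 windows of 5 genes were lower at 24 h than at 22 h and 2 windows of 2 genes were higher. In the whole list 75.7% of windows were lower and 24.3% higher, and nothing is read from the likeness of these shares, since the 8 were chosen from that contrast. The 6 lower windows held 0.76 to 4.21 RPKM at 24 h (median 3.82) and 8.08 to 17.1 at 22 h (median 16.5). Their median fold was 4.35, beside 5.52 over the 615 lower windows of the list. The higher windows, of Dcc and Lphn2, had a median fold of 2.92, beside 3.65 over the 197 higher windows. Folds below carry exact 95% Clopper-Pearson intervals of the recovered reads, which cover counting error only, since the libraries carried no molecular identifiers and reads may be copies of a molecule.

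**Figure D2:**
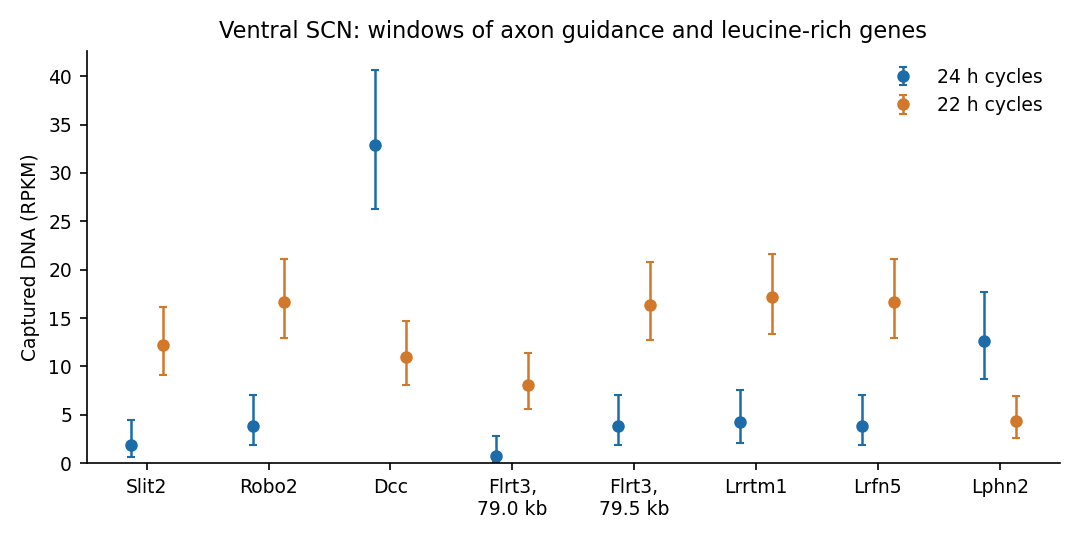
RPKM of each window (linear axis) in the ventral 24 h column, blue, and the ventral 22 h column, orange, with exact 95% Poisson intervals of the recovered reads as error bars. Dcc and Lphn2 lie higher at 24 h, and the other 6 windows lie lower at 24 h.

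For the ligand Slit2, the window held 1.91 RPKM at 24 h (5 reads) and 12.2 RPKM at 22 h (50 reads). It was 6.40-fold lower at 24 h (interval 2.57 to 20.6), a larger fold than 63.1% of the lower windows of the list. Its 28 CpG placed it among the CpG-rich windows of the genome, of which 0.564% held as many. Every 31-base word of the window occurred more than once in mm9, with a median of 113 copies, so its reads cannot be placed by sequence alone at that read length.

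The window of Robo2, a receptor of Slit proteins, held 3.82 RPKM at 24 h (10 reads) and 16.7 RPKM at 22 h (68 reads). It was 4.35-fold lower at 24 h (2.23 to 9.49). The Robo2 and Slit2 windows were thus lower in the same column, and they are the ones that share the sequence shown above. Robo2's window had 22 CpG, and 6.60% of its 31-base words occurred once in the genome. Long reading frames crossed or neighboured both: 1 of 1085 codons overlapped the Slit2 window, and 1 of 1191 codons lay 448 bp from the Robo2 window. Those frames held the amino acid motif YXDD, known from the reverse transcriptases of retroviruses and related retrotransposons. A frame of 600 codons that overlapped the Robo2 window did not hold it.

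Dcc, the netrin receptor, had the most reads of the 8 windows at 24 h. It held 32.9 RPKM at 24 h (86 reads) and 11.0 RPKM at 22 h (45 reads). The 24 h level was above that of 98.5% of the listed windows, while the 2.99-fold difference (2.06 to 4.38) exceeded only 9.14% of the higher windows. The window had 16 CpG, and 18.3% of the higher windows had as many. Short repetition marked its sequence: 62.6% of its 15-base words recurred within 100 bp, with the strongest single shift at 24 bp. Of its 31-base words 31.1% occurred once, and of its 51-base words 76.0%.

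Both windows named after Flrt3 were lower at 24 h. The window nearer to the gene held 0.76 RPKM at 24 h (2 reads) and 8.08 RPKM at 22 h (33 reads), which is 10.6-fold lower (2.70 to 90.9). The window farther from it held 3.82 RPKM at 24 h (10 reads) and 16.4 RPKM at 22 h (67 reads), which is 4.29-fold lower (2.19 to 9.35). With 2 reads behind the lower value, the interval of the first fold is wide and overlaps that of the second. The fragments averaged about 300 bp, so adjoining windows can share them and are not separate measurements. Their summed reads were 12 at 24 h and 100 at 22 h. The sum was 5.33-fold lower at 24 h (2.92 to 10.7), nearer to the fold of the farther window. Any fragment counted in both windows would make this interval too narrow. The sequence changed within the nearer window, whose first 292 bases held 1 CpG and whose last 208 bases held 13. Those last 208 bases matched the Lrrtm1 window at all 208 positions and the farther Flrt3 window at 206. In the nearer window 61.5% of 31-base words occurred once in the genome, and in the farther none did, with a median of 2818 copies.

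The Lrrtm1 window held 4.21 RPKM at 24 h (11 reads) and 17.1 RPKM at 22 h (70 reads). At 24 h it was 4.07-fold lower (2.14 to 8.53), the smallest fold of the 6 lower windows. Lrrtm1 binds neurexins across the synapse. Its window had 31 CpG, the most of the 8, and none of its 31-base words occurred once (median 3288 copies).

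The Lrfn5 window had the same reads as the Robo2 window, 10 at 24 h (3.82 RPKM) and 68 at 22 h (16.7 RPKM). Its fold was therefore also 4.35-fold lower (2.23 to 9.49). No other of the 812 windows had that combination of reads. Lrfn5, an adhesion protein that binds receptor phosphatases at synapses, was the only gene with its window inside its own transcribed region. The Lrfn5 window had 28 CpG, and 17.7% of its 31-base words occurred once.

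Lphn2, the latrophilin, held 12.6 RPKM at 24 h (33 reads) and 4.41 RPKM at 22 h (18 reads). It was 2.86-fold higher at 24 h (1.57 to 5.40), and 3.55% of the higher windows had a smaller fold. The Flrt3 windows and the window of this Flrt3 receptor gene were thus listed in opposite directions. Lphn2's window had 0 CpG, as did 8.19% of genome windows, although its GC content of 66.6% was the highest of the 8. None of its 31-base words occurred once in the genome (median 118.5 copies). Fragments can reach past the ends of a window, and the bases at which they were captured were not tested.

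**Figure D3:**
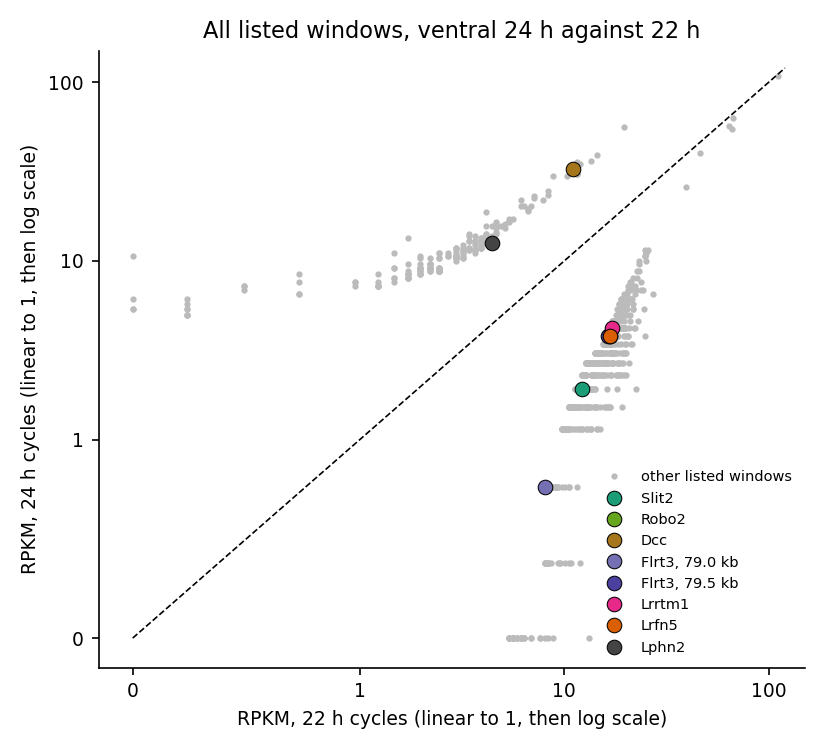
RPKM at 24 h (vertical) against RPKM at 22 h (horizontal) for the 8 named windows (coloured) and the rest of the 812 listed windows (grey), both axes linear up to 1 and logarithmic above it, with a dashed line at equal values. Robo2 and Lrfn5 fall on the same point next to the farther Flrt3 window, and Dcc and Lphn2 lie on the other side of the line.

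The authors' deposited table gave log2 fold changes from -3.59 (the nearer Flrt3 window) to -1.96 (the farther) for the lower windows, and 1.44 for Dcc and 1.80 for Lphn2. In the authors' deposited table the unadjusted p-values of the 8 ran from 3.44e-07 for Dcc to 7.3e-06 for Lphn2, and the largest of the list was 9.94e-06. With 1 column for each cycle length those p-values compare columns and not mice. Among the 8, Lphn2 had the largest p-value and Dcc the smallest, so those 2 higher windows bracket the lower ones.

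CpG content differed between the listed windows of either direction. The 615 lower windows had a median of 28 CpG (quartiles 22 and 31) and the 197 higher windows 5 (2 and 10), while the median of all windows in the genome was 3. The 6 lower windows of the guidance and adhesion genes had 14 to 31 CpG. Of the higher ones, Dcc had 16 and Lphn2 had 0. Tandem repetition also divided them: 15-base words recurring at a shift of 190 bp or slightly more made up at least 30% of the window in 52.2% of lower and 23.4% of higher windows. Recurrence within 100 bp reached that share in 2.11% of lower and 41.6% of higher windows. The measures overlap, because a short repeat can also recur at the longer shift. The Lphn2 window reached 98.8% within 100 bp and 83.3% at the longer shift, and the Dcc window 62.6% and 34.6%. The 23.4% of higher windows therefore includes windows with short repeats, and their share was not separated. The part of CpG number, and of the number of genomic copies, in the 24 h to 22 h differences was not tested.

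**Figure D4:**
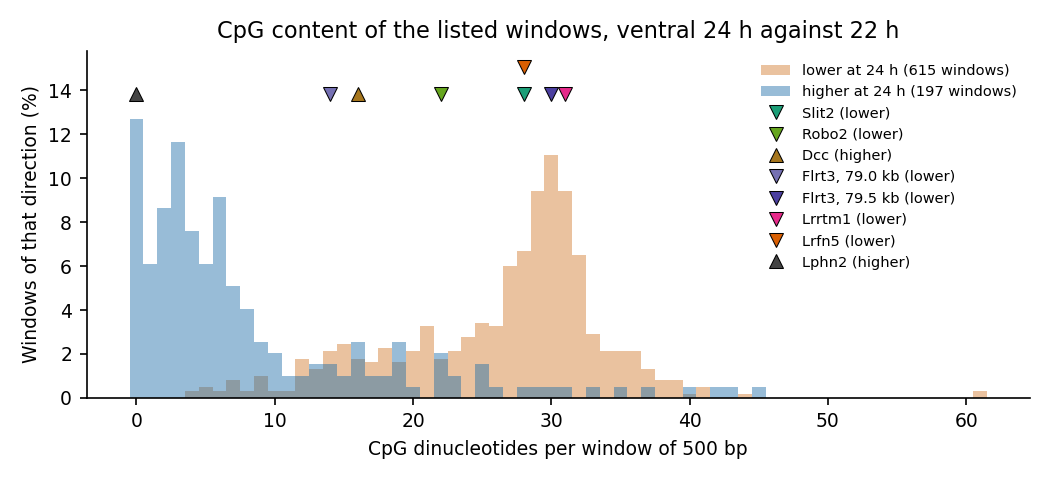
Number of CpG per 500-bp window (horizontal) and percent of the 615 lower (orange) and the 197 higher (blue) listed windows with that number (vertical), with the 8 named windows as triangles above, pointing down for lower and up for higher. The lower windows, 5 of the 6 named ones among them, lie above 20 CpG for the most part, and Lphn2 lies at 0.

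The tandem unit measured 208 bp in the Lrrtm1 window, where 83.8% of 15-base words recurred at that shift, and in the farther Flrt3 window, where 50% did. In the Lrfn5 window 43.9% recurred at 206 bp. No such recurrence was found in the windows of Slit2 and Robo2 or in the nearer Flrt3 window. The long-tandem windows of Flrt3, Lrrtm1 and Lrfn5 each lay within 1308 to 1720 bp of a reading frame of 1300 codons with the motif FADD, known from the reverse transcriptase of LINE-1 retrotransposons. Mouse LINE-1 elements are known to start with tandem promoter units. No frame of 600 codons or more lay within 8000 bp of the Lphn2 window, and the 3 that overlapped the Dcc window held neither motif.

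**Figure D5:**
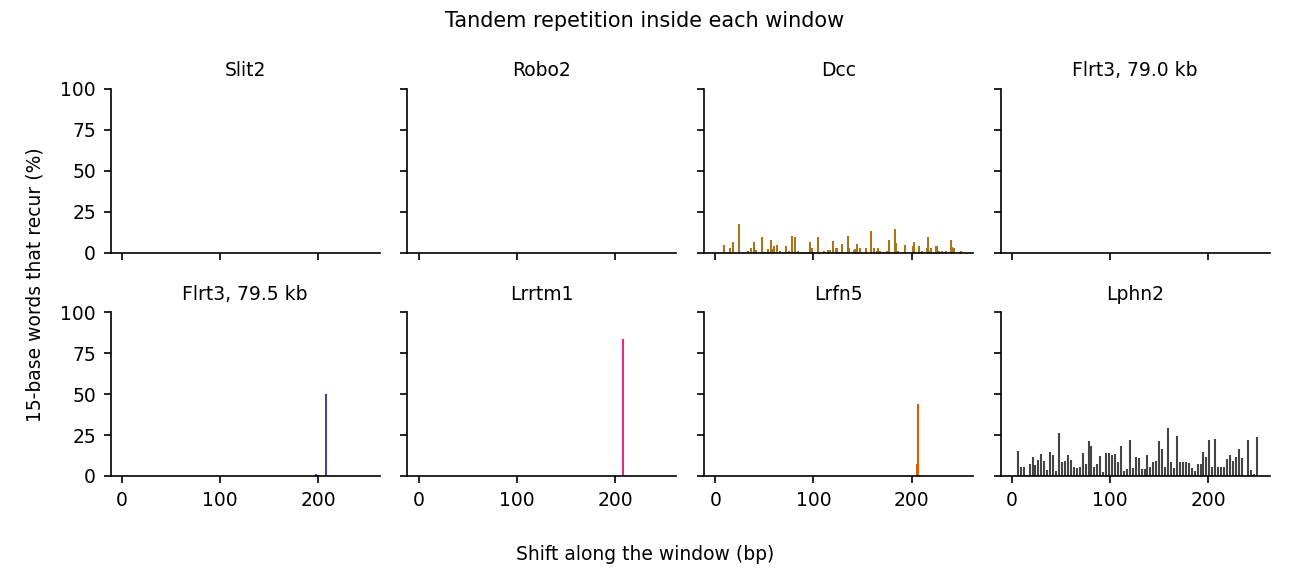
Percent of 15-base words of each window that recur at a given shift within the same window, for shifts in bp, 1 panel for each window. Peaks at 208 bp mark Lrrtm1 and the farther Flrt3 window, and a peak at 206 bp marks Lrfn5, while Dcc and Lphn2 have many small peaks.

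The sequences shown for Flrt3 and Lrrtm1 recurred through the list. Windows with at least 150 aligned bases at 80% identity or more were counted as alike. The Lrrtm1 window and the farther Flrt3 window had the same set of alike windows, 243 each besides themselves (29.9% of the list), on 20 chromosomes. Every one of the 243 was lower at 24 h, beside 75.7% of the whole list. Their medians were 2.68 RPKM at 24 h and 16.2 at 22 h, with a median fold of 5.52 (quartiles 4.70 and 7.04). Alike windows share sequence, and reads of such sequence may not be placed at a single copy. The 243 are therefore not separate measurements. The 243 windows alike to that of Flrt3 carried the names of 182 genes.

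The Slit2 window had 52 alike windows and the Robo2 window 47 (6.40% and 5.79% of the list). All were lower at 24 h, beside 75.7% of the list, and these alike windows are not separate measurements either. Their median folds were 5.52 and 5.67. At a stricter threshold of 200 bases at 90% identity, chosen after the values were seen, the counts were 3 and 39. Lrfn5 had 24 alike windows, all lower, with a median fold of 4.36 (quartiles 3.71 and 5.28). Lphn2 had 5, all higher, with medians of 9.56 RPKM at 24 h and 2.45 at 22 h, and none at the stricter threshold. The Dcc window had none at either threshold.

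Sequences alike to those of the 7 genes also stood in the lists that named none of them. In the ventral 24 h against 26 h list a window named after Ncam2, a neural adhesion gene, was alike to the Slit2 and Robo2 windows. It held 7.65 RPKM at 24 h (20 reads) and 0.64 at 26 h (3 reads), 12.02-fold higher at 24 h (3.57 to 63.2). A window named after the sodium leak channel gene Nalcn was alike to those of Flrt3 and Lrrtm1, with 5.74 RPKM at 24 h (15 reads) and 0 at 26 h. Taking 3 reads as the floor of the 26 h column, it was at least 9.02-fold higher, and the exact 95% limit was 6.47. These windows were thus higher at 24 h, whereas the alike windows of the 22 h list were lower. Each was the only alike window of its sequence among the 217 of the 26 h list. Of the windows with counted words in that list, 57 were higher at 24 h and 159 lower. With 1 window for each sequence, how such sequence as a whole differed between 24 h and 26 h cannot be told. The ventral 24 h column is the same in both lists, and a direct test of 22 h against 26 h was not made.

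In the dorsal SCN, windows named after Vmn2r-ps11 and Got2 were alike to the Flrt3 or Lrrtm1 windows. They held 0.87 and 0.44 RPKM at 24 h and 7.28 and 6.24 at 26 h, so both were lower at 24 h, on 2 reads and 1 read. An Nxnl2 window alike to that of Slit2 was 4.20-fold lower at 24 h than at 22 h (1.42 to 16.8). Windows named after Gm5607 (18.3 against 3.81 RPKM) and Gm597 (14.0 against 2.43), alike to that of Lphn2, were higher at 24 h than at 26 h. For these dorsal windows the direction at 24 h was that of the like windows in the ventral 22 h list, though all but the Nxnl2 window compare with 26 h. Among windows with counted words, 121 were lower and 9 higher in the dorsal 22 h list. In the dorsal 26 h list 61 were lower and 17 higher. Most windows of both lists were thus lower, and nothing is read from the shared direction. These windows were named after their values were seen.

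Other genes of the same pathways were counted from 4 gene lists of 134 annotated genes, which include the 7. In the ventral 24 h against 22 h list 18 of the 134 (13.4%) gave their name to at least 1 window, beside 2.25% of 22238 protein-coding genes. Without the 7 genes, which were chosen for being listed, 11 of 127 (8.66%) did so. With only windows inside the named gene, the counts were 4 of 134 (Rtn4rl2, Ptprd, Nrxn3 and Lrfn5) and, without the 7, 3 of 127 (2.36%), beside 0.513% of protein-coding genes. In the ventral 26 h list that count was 0 of 134, beside 0.0809%. With windows at any distance in the 22 h list, guidance ligands besides Slit2 had 1 of 36 (2.78%). Guidance receptors besides Robo2 and Dcc had 0 of 35. Other leucine-rich adhesion genes had 8 of 41 (19.5%), and their partners besides Lphn2 had 2 of 15 (13.3%). With Slit2, Robo2 and Dcc kept, guidance ligands had 2 of 37 (5.41%) and guidance receptors 2 of 37 (5.41%). Keeping genes chosen for being listed raises a share, and leaving them out lowers it. Counts of 0 and 1 are also too small to set the guidance genes apart from the other lists or from the 2.25% of protein-coding genes. The share of the other leucine-rich genes was above that 2.25%, and that of their partners rests on 2 genes. The windows of the 11 lay at a median of 418.5 kb from the start site, beside 77.8 kb over the list. A gene with distant neighbours can be nearest to more windows, and the part of gene spacing in this count was not tested.

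Among the ligands, the window named after Rgmb, a repulsive guidance molecule, was 10.6-fold lower at 24 h (2.70 to 90.9). It held 0.76 RPKM (2 reads) beside 8.08 (33 reads), and lay 567.7 kb from the start site. Of the leucine-rich genes, the windows of Lrrc4c (1.91 and 18.1 RPKM), Lrrn3 (0.38 and 8.32), Slitrk1 (1.53 and 10.5) and Slitrk4 (2.68 and 14.7) were lower at 24 h. The Lrrn3 window had 1 read at 24 h and lay 1455 kb from the start site. Slitrk2, which like the other Slitrk genes encodes a synaptic adhesion protein, had 2 lower windows, at 6.12 and 19.3 RPKM and at 2.68 and 13.2 RPKM. The windows of Lrrc4c, Slitrk4 and Slitrk2 were alike to those of Flrt3 and Lrrtm1, with 29 to 31 CpG. Higher at 24 h were the windows of Rtn4rl2 (9.18 and 2.20), Lingo2 (9.18 and 1.96) and Slitrk5 (7.26 and 1.22). Among the partners, the window of the neurexin gene Nrxn3 was lower (1.15 and 10.04 RPKM). That of the receptor phosphatase gene Ptprd was higher (7.26 and 0.49 RPKM), with 2 reads at 22 h. Together the 11 genes had 8 lower and 4 higher windows. Few 31-base words occurred once in the genome in the windows of Nrxn3 (4.89%), Lingo2 (1.49%) and Rgmb (0%). In those of Slitrk1, Lrrn3, Ptprd and Slitrk5 the share ran from 38.3% to 66.8%, and in that of Rtn4rl2 it was 100%.

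None of the 134 genes named a window in the dorsal 24 h against 22 h or 26 h lists, where 0.247% and 0.189% of protein-coding genes did. In the ventral 24 h against 26 h list 1 (0.746%) did, beside 0.225% of protein-coding genes. At shares this low, 0 or 1 gene says little about the pathways. That gene was Lrrc4c, with 7 windows 1194 to 1200 kb from its start, each 1.67-fold to 1.83-fold higher at 24 h (102 to 202 RPKM) than at 26 h (56.4 to 113 RPKM). The 7 stood in 1 block (chr2:98502001-98508000), where 12.55% to 51.49% of the 31-base words of a window occurred once. Adjoining windows can share fragments, so the 7 are not separate measurements. The Lrrc4c window in the 22 h list was another 1, alike to those of Flrt3 and Lrrtm1, and lower at 24 h. Within 1 Mb of the 8 windows no list held a window of another gene, except 1 named after Ttll7 at 848 kb from that of Lphn2, which was higher in dorsal 24 h (13.1 RPKM) than in dorsal 26 h (2.43 RPKM).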

How the data were processed

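Captured DNA from ventral and dorsal SCN was sequenced after cycles of 22, 24 or 26 h. BWA and the mm9 build are named in the submitters' processing notes, and the BWA version is not given in the sources used here. The authors deposited 4 lists of 500-bp windows. Per the file headers each list has, for each cycle length, a counts column, treated here as a score because its values are rescaled and not reads, and an RPKM column. The authors' log2 fold change and unadjusted p-value are, per the file headers, from edgeR and compare 24 h with the other cycle. Criteria for listing are not given in the sources used here, and unlisted windows were not analysed here. The list for ventral 26 h has 220 rows, and 217 remained without repeats. Across the lists 16 columns of means were not used.

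The genes, the pathway lists and the sequence measures were chosen with earlier results of these data known. All listed windows of the 7 genes were taken, so none was filtered out, and other genes are named where a pathway list holds them or a window is alike to one of the 8. Reads were recovered as whole multiples of the RPKM of 1 read (tolerance 0.01 RPKM), and the size of that step gave the depth. Ratios of RPKM carry 95% Clopper-Pearson intervals, and a column at 0 was set to a floor of 3 reads. Annotation was GENCODE M1. CpG were counted in each window and in all windows of the mm9 grid without undetermined bases. Words of 31 and 51 bases were counted on both strands of mm9. Windows were aligned with BLAST 2.17.0 and, in pairs, with Biopython 1.88 (match 1, mismatch -1, gap opening -3, extension -1). Tables were made with numba 0.67.0, scipy 1.17.1, pandas 2.3.3 and numpy 2.4.6 under Python 3.11.15, and plots with matplotlib 3.10.9. Recovery of reads, cover of the ratio interval and counting of words were tested on simulated data, and the other steps were not. A dorsal window alike to those of Flrt3 and Lrrtm1 is not reported here. Alternatives were the authors' log2 fold change in place of RPKM, division by the list's median ratio, 0.5 added reads, windows summed within 5000 bp, the interval of the ratio, the nearest annotated start, distance, p-value, windows inside the gene, sequence uniqueness and word length.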

Additional observations from a re-analysis of the deposited data

How the results depend on the processing

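No paired analysis was possible because each deposited list has 1 column for each cycle length, and for the same reason no replicate could be left out. Of 26 alternative ratios of 24 h to 22 h, 18 kept their direction and lay within the 95% counting interval of the ratio. The 18 draw on the same columns, so their closeness says little about normalization. Each of the rest was a ratio divided by the list's median, and no ratio so divided stayed within its interval. Of 14 alternative counts that started above 0, 6 stayed within 1.5 times; counts that started at 0 are not included. Dividing each ratio of 24 h to 22 h by the median ratio of the list (0.211) turned the direction of the farther Flrt3 window (1.10), Lrrtm1 (1.16), Lrfn5 (1.09) and Robo2 (1.09). It left the nearer Flrt3 window at 0.449 and Slit2 at 0.740, and put Lphn2 at 13.6 and Dcc at 14.1. This scaling treats the median of a list chosen for differences as unchanged. Of the 6 lower windows, 0 had an authors' p-value at or below 0.1 of the largest of the list, 3 lay within 200 kb of the start site, and 1 had at least 50% unique 31-base words. Of the 2 higher windows these limits kept 1, 0 and 0. Counting only windows inside the named gene left 4 of the 18 pathway genes at 22 h and 0 of 1 at 26 h, beside 0.513% and 0.0809% of protein-coding genes. With 51-base words the share found once was 11.3% in the Robo2 window, 28.0% in that of Lrfn5 and 17.1% in that of Lphn2. Depth limits the nearer Flrt3 window most, with 2 reads at 24 h.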
